A study of Caenorhabditis elegans with 8 samples.

Results

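The comparison is of 2 kin-3 libraries with 2 prde-1 libraries from whole Caenorhabditis elegans worms, over the piRNAs that had at least 1 read in any of the 4. Of the 9742 piRNAs listed in the deposited table, 265 met this condition. The kin-3 worms had been cultured with 500 µM IAA (auxin, a plant hormone used to trigger the breakdown of degron-tagged proteins); the prde-1 worms were untreated, so genotype and IAA cannot be told apart. The labels give neither the alleles nor a tag, and no stage, age or number of cultures. The series also holds 2 untreated WT and 2 untreated prg-1 libraries, used here as reference levels. All RNA was treated with the polyphosphatase PIR-1 before adaptor ligation. The question is whether loss of the kinase leaves the same residue of piRNAs as loss of a factor of the transcription complex itself.

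In the worm, piRNAs are 21 nt germline RNAs, also called 21U-RNAs, each transcribed from its own small gene. Most of these genes lie in a large and a small cluster on chromosome IV. The upstream sequence transcription complex, of which PRDE-1 is a component, binds the piRNA genes and brings about their transcription, and the products are loaded onto the Argonaute PRG-1. The kinase casein kinase II has KIN-3 as its catalytic subunit, and the series' title names the complex component TOFU-4 as a target of that kinase. Libraries came from whole animals, so fewer germ cells and less piRNA per cell cannot be told apart.

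Depth differed between the genotypes. Values are in RPM, reads per 1e6 of the total to which the authors scaled each library. That total was 341001 and 562081 reads in kin-3, and 5337646 and 5608712 reads in prde-1, so the pooled prde-1 libraries were 12.1 times deeper. A single read was worth 2.93 and 1.78 RPM in the kin-3 libraries but 0.187 and 0.178 RPM in the prde-1 libraries. Listed piRNAs held 82 and 117 reads in kin-3 and 2057 and 2257 reads in prde-1. Between replicates the make-up of loci with at least 10 pooled reads did not differ beyond counting noise in a chi-square test (p = 0.135 over 4 loci in kin-3 and p = 0.118 over 17 loci in prde-1). The kin-3 libraries were apart elsewhere: the minus strand of the large cluster on chromosome IV held 20.7% of the piRNA reads in replicate 1 (exact 95% interval 12.6% to 31.1%) and 5.13% in replicate 2 (1.90% to 10.8%).

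The main loci contributed different shares of the piRNA reads in the 2 genotypes. In prde-1 the single locus 21ur-1430 held 56.4% and 58.1% of all piRNA reads, whereas in kin-3 it held 2.44% and 11.97%. The exact 95% intervals of the 4 shares were 54.3% to 58.6% and 56.0% to 60.1% in prde-1, and 0.297% to 8.53% and 6.70% to 19.3% in kin-3. 21ur-9719 was the main locus of the kin-3 libraries, with 36.6% and 34.2% of the reads, against 7.39% and 7.35% in prde-1. The large cluster, taken as chromosome IV from 13 Mb, supplied 26.8% and 16.2% of the kin-3 reads and 5.59% and 5.10% of the prde-1 reads. Shares of a library do not depend on the scaling total. They are tied to each other, however: without 21ur-1430 in the sum, the mean share from other chromosomes was no longer higher in kin-3 but 13.6 percentage points lower. For each of the 3 shares both kin-3 libraries lay on one side of both prde-1 libraries, which gives an exact two-sided permutation p of 0.333, the smallest that 2 against 2 libraries allow.

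**Figure D1:**
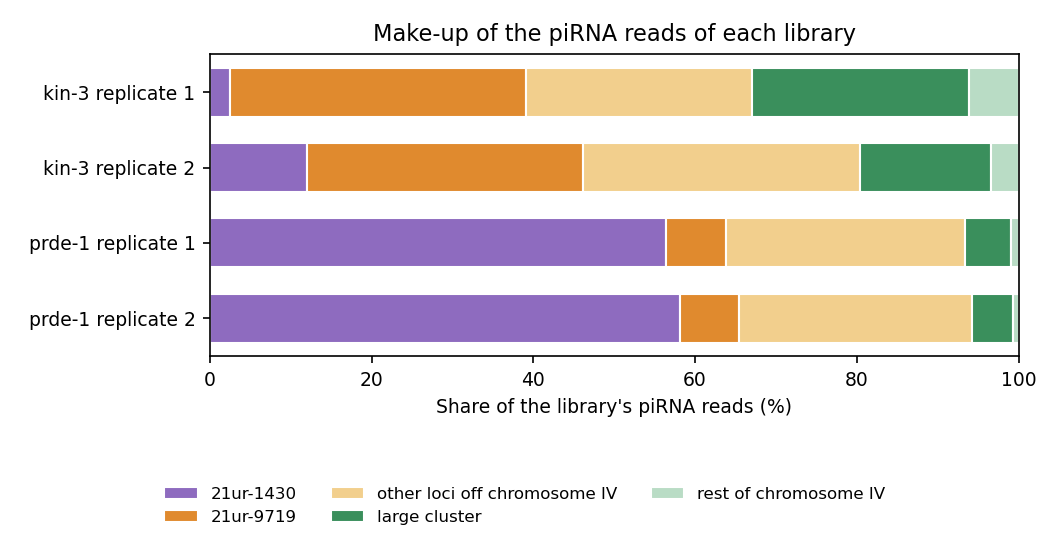
Share of each library's piRNA reads (horizontal axis, %) from 21ur-1430, 21ur-9719, the other loci off chromosome IV, the large cluster and the rest of chromosome IV, for the 2 kin-3 and 2 prde-1 libraries (bars). 21ur-1430 fills 56.4% and 58.1% of the prde-1 bars but 2.44% and 11.97% of the kin-3 bars.

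Summed over all listed piRNAs, the level was 240 and 208 RPM in the kin-3 libraries and 385 and 402 RPM in the prde-1 libraries. The prg-1 libraries, at 229 and 223 RPM, lay between the 2 kin-3 values. Both kin-3 values lay below both prde-1 values (pooled ratio 0.559, 95% counting interval 0.483 to 0.645). This order rested on 21ur-1430. Without that locus the kin-3 libraries stood at 234.6 and 183 RPM and the prde-1 libraries at 167.9 and 168.7 RPM, and the ratio was 1.204 (1.03 to 1.40). The kin-3 level was then the higher one, mainly through replicate 1: replicate 2 alone gave 1.09 (0.884 to 1.33). Leaving out 21ur-9719 as well brought the ratio to 0.899 (0.736 to 1.09), with overlapping libraries. Without 21ur-10824 and 21ur-10492 as well, both kin-3 libraries were again higher, at 114 and 80.1 RPM against 60.0 and 57.4 RPM. The ratio over these 9738 piRNAs was 1.59 (1.25 to 1.99). Of the 4 loci left out, only 21ur-9719 was higher in kin-3. The direction of the total thus depended on which of these 4 loci were counted.

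The large cluster was higher in kin-3. Its 8018 listed piRNAs summed to 64.5 and 33.8 RPM in kin-3 and to 21.5 and 20.5 RPM in prde-1. Both kin-3 libraries were higher, with a pooled ratio of 2.16 (95% counting interval 1.51 to 3.02) on 41 reads against 230. Replicate 1 alone gave 3.07 (1.89 to 4.76) and replicate 2 alone 1.61 (0.951 to 2.57), so the interval of the latter includes 1. The levels were 0.406% of WT in kin-3 and 0.174% in prde-1. In the prg-1 libraries the large cluster stood at 56.7 and 44.3 RPM, between the 2 kin-3 values. A level above that of prde-1 was thus not particular to kin-3. Relative to the reads from other chromosomes in the same library, which needs no scaling total, the large cluster gave 0.415 and 0.237 reads per read in kin-3 and 0.151 and 0.141 in prde-1. The pooled intervals, 0.212 to 0.4405 and 0.126 to 0.168, were apart. The interval of kin-3 replicate 2 alone, 0.136 to 0.395, overlapped those of both prde-1 libraries (0.123 to 0.184 and 0.115 to 0.1715).

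**Figure D2:**
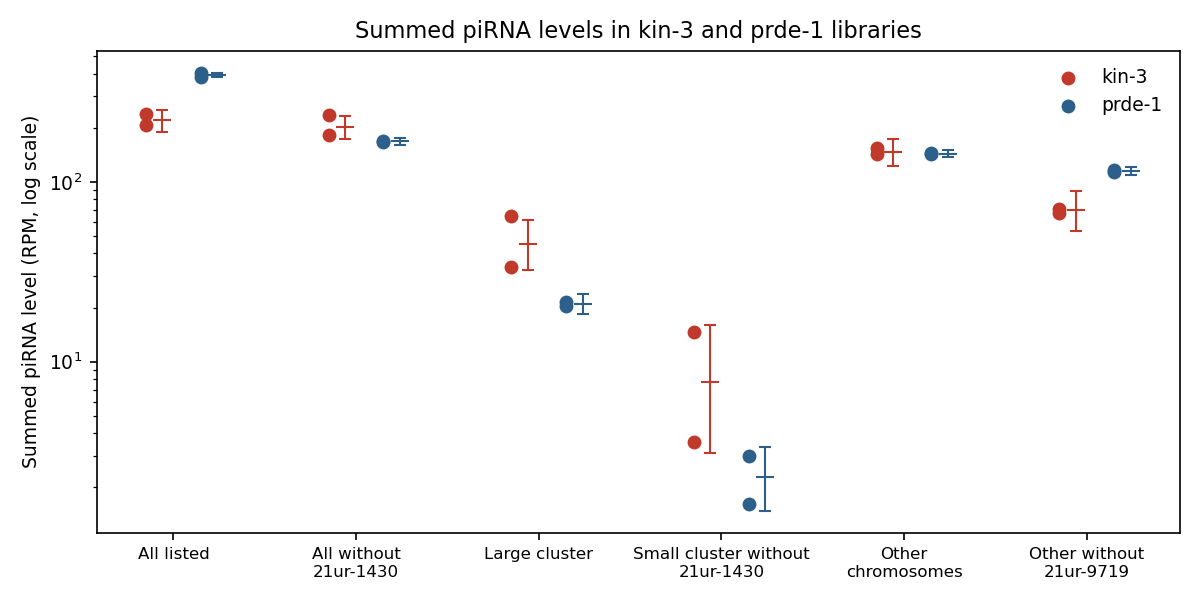
Summed piRNA level (vertical axis, RPM, log scale) over 6 sets of loci in each kin-3 and prde-1 library (points), beside the pooled level with its exact 95% Poisson interval (bars). The total is lower in kin-3, but the large cluster lies at 64.5 and 33.8 RPM in kin-3, above 21.5 and 20.5 RPM in prde-1.

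Within the large cluster the values were set out by segment, strand and host gene. In the segment from 15 to 16 Mb the kin-3 libraries stood at 14.7 and 14.2 RPM and the prde-1 libraries at 5.25 and 5.35 RPM (ratio 2.72, interval 1.37 to 5.02). From 16 to 17 Mb the values were 20.5 and 10.7 RPM against 7.12 and 6.24 RPM (2.16, 1.097 to 3.93). From 14 to 15 Mb the kin-3 libraries, at 20.5 and 3.56 RPM, lay on either side of the prde-1 libraries at 6.75 and 6.60 RPM (1.49, 0.657 to 2.995). The outer segments held too few kin-3 reads to place them, with 2 reads from 13 to 14 Mb and 4 from 17 Mb. The ratio was 2.10 (1.197 to 3.48) for piRNAs on the plus strand and 2.21 (1.35 to 3.47) for those on the minus strand, where the libraries overlapped and replicate 2 alone gave 0.927 (0.334 to 2.08). It was 1.72 (1.05 to 2.70) for piRNAs outside annotated genes and 3.09 (1.58 to 5.62) for those in coding introns; whether these differ was not tested, and replicate 2 alone gave intervals that include 1 in both (0.591 to 2.37 and 0.747 to 4.93). The piRNAs in coding exons gave 3 kin-3 and 14 prde-1 reads, those in exons of non-coding genes or pseudogenes 0 and 4, and those in introns of such genes 2 and 2.

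On the chromosomes other than IV, the 109 listed piRNAs summed to 155 and 142.3 RPM in kin-3 and to 142.6 and 145 RPM in prde-1, with overlapping libraries (ratio 1.02, 0.850 to 1.22). This sum joins opposite differences. Without 21ur-9719 the kin-3 libraries stood at 67.4 and 71.2 RPM, both below the prde-1 libraries at 114 and 116 RPM (ratio 0.607, 0.463 to 0.781). Of the 1259 prde-1 reads left, 21ur-10824 held 456 and 21ur-10492 held 426. Of the 63 kin-3 reads left they held 11 and 18. This ratio thus rests largely on these 2 loci and does not describe the others. By chromosome, the ratio was 0.581 (0.376 to 0.861) on II and 0.510 (0.317 to 0.780) on III. On II, 21ur-10492 held 426 of the 542 prde-1 reads and 18 of the 26 kin-3 reads. On III, 21ur-10824 held 456 of 523 and 11 of 22. Both ratios thus rest largely on 1 locus. On X the ratio was 2.58 (1.97 to 3.35), and 70 of the 71 kin-3 reads were from 21ur-9719. On I and V the intervals, 0.182 to 1.38 and 0.657 to 2.995, include 1.

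The small cluster, at 4.5 to 7 Mb of chromosome IV, was close to empty in both genotypes once 21ur-1430 was set aside. Its other 1511 piRNAs gave 5 and 2 reads in kin-3 (14.7 and 3.56 RPM) and 16 and 9 reads in prde-1 (2.998 and 1.60 RPM). Both kin-3 libraries were higher, with a ratio of 3.39 (1.24 to 8.07), but replicate 2 alone gave 1.56 (0.179 to 6.25). On the rest of chromosome IV there were 2 kin-3 reads and 10 prde-1 reads (ratio 2.42, 0.258 to 11.4).

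Residual levels in the large cluster were compared across classes of WT abundance. Of the 247 piRNAs above 10 RPM in WT, 8 had a kin-3 read and 31 a prde-1 read, or 3.24% and 12.6% at the very different depths. Their summed level was 10.9 ± 5.34 RPM (SD, n = 2) in kin-3 and 3.40 ± 1.28 RPM in prde-1, which are 0.188% and 0.0589% of WT (ratio 2.95, interval 1.25 to 6.22). For the 1819 piRNAs above 1 and up to 10 RPM the levels were 0.439% and 0.183% of WT (2.31, 1.36 to 3.75), and for the 2011 above 0 and up to 1 RPM they were 1.22% and 0.330% (3.03, 1.35 to 6.17). In this last class the kin-3 libraries stood at 23.5 and 3.56 RPM, on either side of the prde-1 libraries at 3.37 and 3.92 RPM; leaving out kin-3 replicate 1 gave a ratio of 0.974 (0.114 to 3.76). Replicate 2 alone also gave intervals that include 1 in the classes above 1 and up to 10 RPM (0.988 to 3.80) and above 10 RPM (0.545 to 5.86). The classes are set by the same WT values that form the denominator. Another 3941 large-cluster piRNAs had no WT read; they held 2 kin-3 reads and 48 prde-1 reads (ratio 0.505, 0.0595 to 1.93). Of the 10 most abundant WT piRNAs, only 21ur-6307 and 21ur-13680 had any read in the 4 libraries. 21ur-6307, at 202 ± 12.8 RPM (SD, n = 2) in WT, gave 1 read in prde-1 replicate 1, and 21ur-13680, at 70.0 ± 3.18 RPM in WT, gave 2 reads in kin-3 replicate 2 and none in the other 3 libraries.

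**Figure D3:**
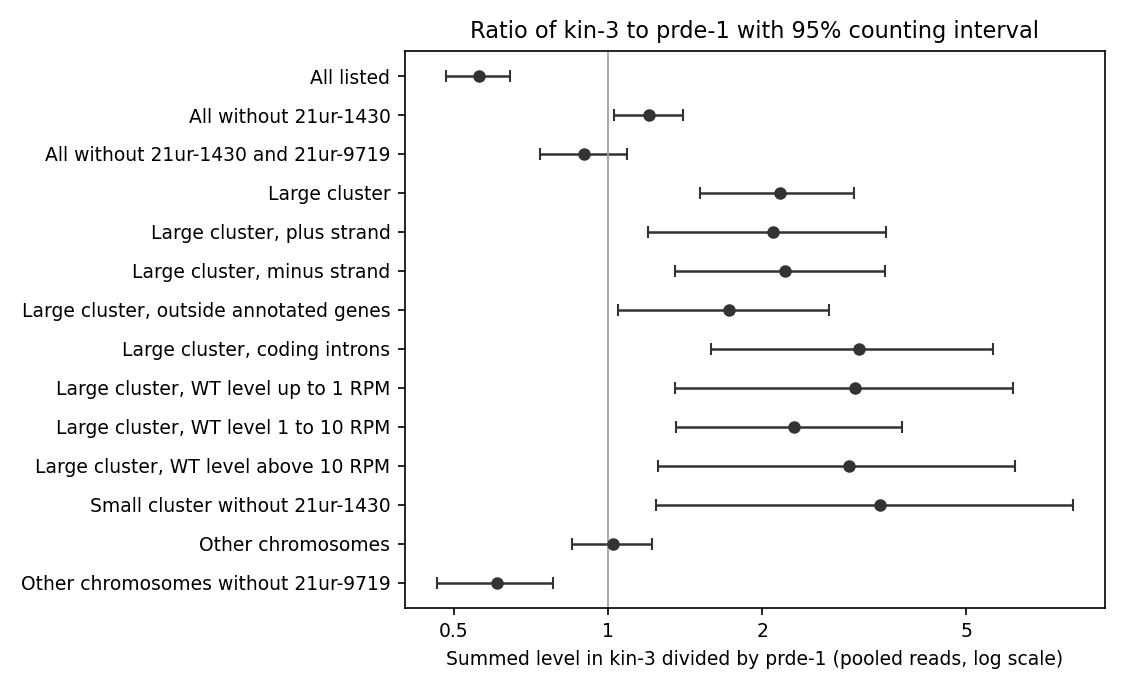
Summed level in kin-3 divided by that in prde-1 (horizontal axis, log scale, from pooled reads) for sets of loci, with exact 95% counting intervals (bars); the line marks 1. The ratio is 0.559 for all listed piRNAs and 2.16 for the large cluster, and the large-cluster subsets drawn (those without a WT read are not) lie above 1.

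Numbers of detected piRNAs had to be brought to one depth. As deposited, 36 and 36 piRNAs had a read in kin-3 and 127 and 130 in prde-1. Thinned to the 341001 reads of the shallowest library, 36 and 25.6 were expected in kin-3 and 19.9 and 19.2 in prde-1. The order of the genotypes was thus the opposite of the raw one, with both kin-3 libraries above both prde-1 libraries. The difference lay mostly in the large cluster, where 20 and 10.8 were expected in kin-3 and 7.16 and 6.87 in prde-1. On other chromosomes the thinned means were 10.9 ± 1.21 and 10.5 ± 0.0947 (SD, n = 2). Counting only piRNAs with at least 2 reads, the thinned means were 8.40 ± 0.856 in kin-3 and 6.95 ± 0.0396 in prde-1.

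**Figure D4:**
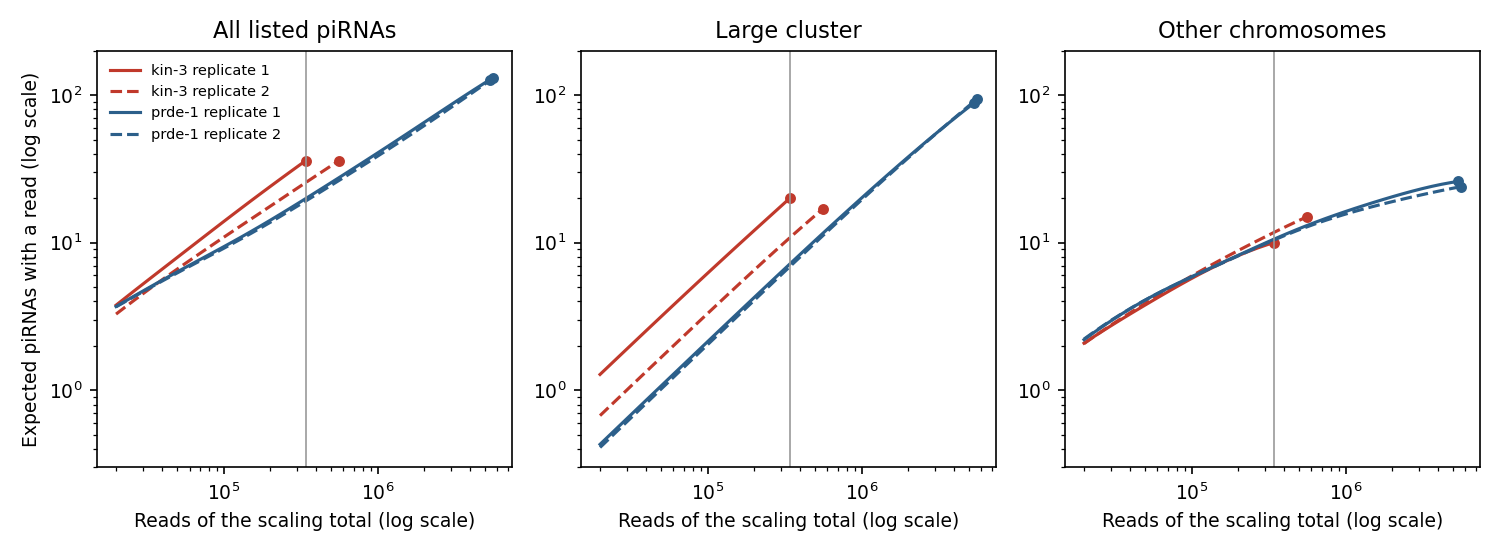
Number of piRNAs expected to have a read (vertical axis, log scale) when each library is thinned to fewer reads (horizontal axis, log scale), for all listed piRNAs, the large cluster and other chromosomes; points mark the full libraries and the vertical line the 341001 reads of the shallowest. At that line the kin-3 curves lie at 20 and 10.8 in the large cluster, above 7.16 and 6.87 in prde-1, and the curves run together on other chromosomes.

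Few loci were seen in both genotypes. Of the 265 piRNAs, 25 had a read in both, 38 in kin-3 only and 202 in prde-1 only. The shared loci were 39.7% of the 63 detected in kin-3 and 11.01% of the 227 detected in prde-1. A total of 196 piRNAs rested on 1 read over the 4 libraries, 52 on 2 to 9 reads and 17 on 10 or more; below this rule stand only piRNAs with 0 reads in all 4. None of the 202 loci seen only in prde-1 had a pooled prde-1 level above 3.32 RPM, the level at which 3 reads would be found in the pooled kin-3 libraries; the highest was 1.64 RPM. Their absence from kin-3 was thus not detectable as a difference at this depth. Together they held 317 prde-1 reads, for which 26.2 kin-3 reads would correspond at equal levels. Of the 38 loci seen only in kin-3, 35 had 1 read and 3 had 2. Their 41 kin-3 reads would correspond to 497 prde-1 reads. Each class was picked for having no read in the other genotype, so neither expected number measures a difference.

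The overlap was described by location. Off chromosome IV, 16 of the 33 members had a read in both genotypes, which is 88.9% of those detected in kin-3 and 51.6% of those detected in prde-1. In the large cluster 7 of 203 did, 19.4% of the kin-3 and 4.02% of the prde-1 loci. The loci off chromosome IV were also the more abundant in reads per locus, with 131 kin-3 and 1499 prde-1 reads at the 16 shared loci, against 10 and 25 reads at the 7 shared loci of the large cluster. Of the 33 members off chromosome IV, 19 overlapped a coding exon, 8 an exon of a non-coding gene or pseudogene, and 6 no other gene. Over all 265 members, 40 overlapped a coding exon, 70 a coding intron, 15 an exon of a non-coding gene or pseudogene, 4 an intron of such a gene, and 136 no other gene. Of the members with a host gene, 53 were on its strand and 76 opposite to it. Among all 9742 listed piRNAs, 402 overlapped a coding exon, 3243 a coding intron and 95 an exon of a non-coding gene or pseudogene. Another 152 overlapped an intron of such a gene, and 5850 no other gene. By strand, 1928 were in the orientation of the host and 1964 opposite. Whether the members depart from these numbers was not tested.

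A total of 9 loci had a read in all 4 libraries, 7 of them off chromosome IV. They held 135 of the 199 kin-3 reads (67.8%) and 3778 of the 4314 prde-1 reads (87.6%). In 4 of the 9 both kin-3 values lay below both prde-1 values, and in 5 both lay above. To enter this list a locus needs at least 2.93 and 1.78 RPM in kin-3, but only 0.187 and 0.178 RPM in prde-1. Rare loci thus enter only when high in kin-3, and the 2 counts do not weigh the directions. Single piRNAs were tested with limma on log2(RPM + 1) over the 695 piRNAs with a mean of at least 1 RPM in the 8 libraries of the series. Of the 265 members, 93 passed this filter and 172 did not; the other 602 tested piRNAs had no read in any of the 4 libraries. Limma called none different at an adjusted p under 0.05 (0% of those tested), with 8 (1.15%) at an unadjusted p under 0.05. Among the 31 piRNAs with a mean of at least 10 RPM, limma called 9.68%, namely 21ur-9719 higher (3.23%) and 21ur-1430 and 21ur-10824 lower (6.45%). Among the 15 with a mean of at least 1 RPM in the 4 libraries it called 40%, 20% in each direction. That filter uses the values compared, and rare loci such as 21ur-10895 pass it through their kin-3 reads. The 2 shares therefore do not weigh the directions. On the recovered reads of the same piRNAs, edgeR's quasi-likelihood test called 3, or 0.432% of those tested: 21ur-1430 and 21ur-10824 lower in kin-3 (0.288%) and 21ur-9719 higher (0.144%), with 24 (3.45%) at an unadjusted p under 0.05. Both kin-3 libraries lay above both prde-1 libraries at 0.576% of the 695 tested piRNAs and below them at 1.29%. The latter include loci without a kin-3 read, such as 21ur-4817 and 21ur-3236 (log2 difference -0.24 each). These 2 shares thus also depend on the depths. The median log2 difference was 0.00 over all 695 and -0.12 over the 93 tested members. Of the 93, 63 rested on a single read. A prde-1 read moves the log2 value much less than a kin-3 read, so this median follows the depths.

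**Figure D5:**
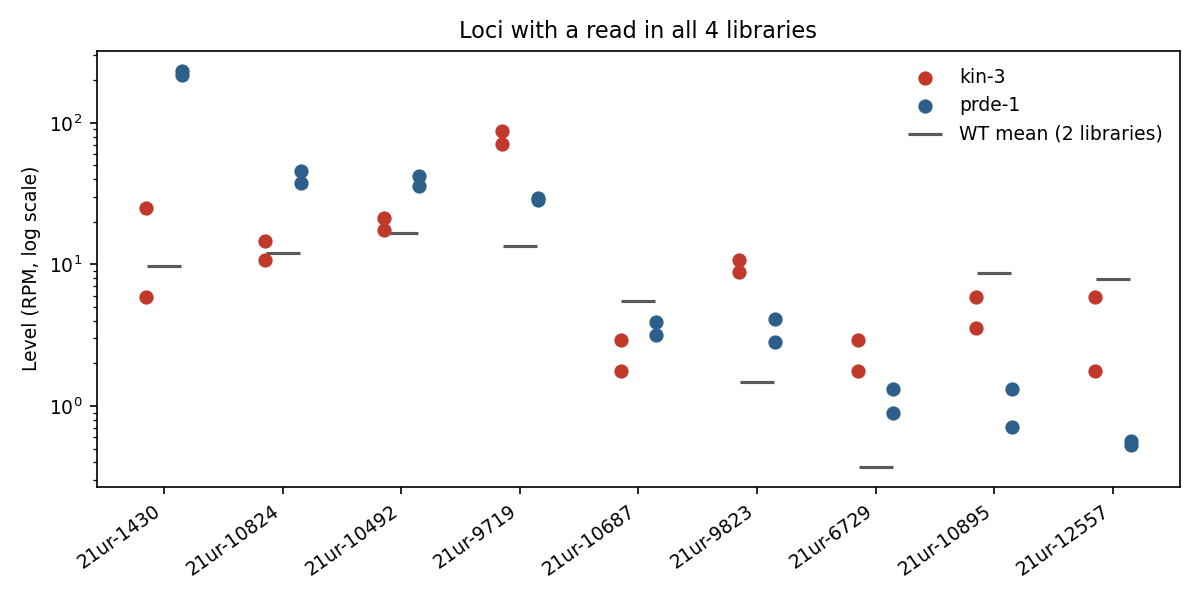
Level (vertical axis, RPM, log scale) of the 9 loci with a read in all 4 libraries, in each kin-3 and prde-1 library (points), with the WT mean of 2 libraries (dashes). 21ur-1430, 21ur-10824, 21ur-10492 and 21ur-10687 are lower in both kin-3 libraries than in both prde-1 libraries, and the other 5 are higher.

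21ur-1430 showed the largest difference. It is listed at chromosome IV 5566428 to 5566448, plus strand, inside the hairpin gene of the microRNA mir-790 and in the same orientation. It stood at 5.87 and 24.9 RPM in kin-3 (2 and 14 reads) and at 218 and 234 RPM in prde-1 (1161 and 1311 reads). The groups are far apart, but the kin-3 libraries also differ from each other. The prde-1 level was 12.7 times that of kin-3 on pooled reads (95% counting interval 7.83 to 22.3). Replicate 1 alone gave 38.5 (10.7 to 318) and replicate 2 alone 9.07 (5.39 to 16.6). The kin-3 level was near the 9.79 ± 3.01 RPM (SD, n = 2) of WT and the 19.7 ± 4.498 RPM of prg-1, while both prde-1 libraries lay above all 6 other libraries of the series. The log2 difference of kin-3 from prde-1 was -4.09 (SE 0.65, limma adjusted p = 0.346), while edgeR gave -3.67 with an adjusted p of 1.6e-25. Over the alternatives the adjusted p of limma and edgeR ranged from 4.3e-48 to 1.

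21ur-9719 differed the other way. It lies at X 9072394 to 9072414, minus strand, and runs opposite to an exon of linc-22, a long noncoding RNA gene. Its level was 88.0 and 71.2 RPM in kin-3 (30 and 40 reads) and 28.5 and 29.6 RPM in prde-1 (152 and 166 reads). Both kin-3 values were more than those of prde-1, with a pooled ratio of 2.67 (2.03 to 3.47), and each replicate alone gave an interval above 1 (2.01 to 4.41 and 1.72 to 3.41). The log2 difference was 1.42 (SE 0.27, limma adjusted p = 0.598; edgeR adjusted p = 2.5e-05; range over the alternatives 2.5e-05 to 1). Rescaling by TMM (the trimmed mean of M-values, which raised prde-1 relative to kin-3 levels) turned its sign, to -2.71. With TMM the limma adjusted p was 0.0109, so the locus was then called lower in kin-3. The range given above thus joins calls in opposite directions. In WT 21ur-9719 stood at 13.4 ± 4.24 RPM, below all 4 libraries compared, and in prg-1 at 92.3 ± 10.9 RPM.

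The other piRNA of the same gene, 21ur-15566 (X 9071288 to 9071308, minus strand, antisense to linc-22 and to the small nucleolar RNA gene F47E1.19 as well), was listed at 0 in both kin-3 libraries and had 10 and 3 reads in prde-1. At the pooled prde-1 level, about 1 kin-3 read would be found, so no difference was detectable. Among the members opposite to exons of other long noncoding RNA genes, 21ur-9823 (III 1371141 to 1371161, minus strand, linc-24) stood at 8.80 and 10.7 RPM in kin-3 and 4.12 and 2.85 RPM in prde-1. The groups did not overlap (ratio 2.87, 1.22 to 6.04, on 9 and 38 reads), but replicate 1 alone gave an interval from 0.5005 to 7.99. Its log2 difference of 1.27 (SE 0.34) had a limma adjusted p of 1, and TMM turned it to -2.45. 21ur-8285 (II 3373666 to 3373686, plus strand, linc-11) had 0 and 3 reads in kin-3 and 18 and 16 in prde-1, a ratio of 1.07 (0.210 to 3.40). Of 21ur-9719, 21ur-9823 and 21ur-8285, the 3 with such a host and reads in both genotypes, the pooled interval excluded 1 for the first 2. Not shown are 1 member with such a host read only in kin-3 and 1 read only in prde-1. 21ur-13684, opposite to exons of a pseudogene and of linc-59, is given among the rarer loci.

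21ur-10824 was the second locus that edgeR called lower in kin-3. It lies at III 2295350 to 2295370, minus strand, within the 3′ UTR of the protein-coding gene Y54F10BM.9, in the same orientation. It stood at 14.7 and 10.7 RPM in kin-3 (5 and 6 reads) and at 37.3 and 45.8 RPM in prde-1 (199 and 257 reads). The prde-1 level was 3.42 times higher (1.89 to 6.90), and each kin-3 library alone gave an interval above 1 (1.21 to 8.79 and 1.78 to 10.7). The log2 difference was -1.65 (SE 0.20, limma adjusted p = 0.291; edgeR adjusted p = 0.0062; range over the alternatives 4.2e-04 to 1). The kin-3 level was close to the 11.98 ± 0.0907 RPM of WT. 21ur-11898, whose start lies 2 nt away on the same strand, had 0 and 1 read in kin-3 and 3 and 8 in prde-1. The pair overlaps, so these loci are not independent of each other.

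21ur-10492 (II 13247294 to 13247314, minus strand) and 21ur-10687 (II 13246773 to 13246793, minus strand) are both antisense to coding exons of F15D4.5. 21ur-10492 stood at 17.6 and 21.3 RPM in kin-3 and at 42.2 and 35.8 RPM in prde-1. Its kin-3 values lay below those of prde-1, near the 16.8 ± 3.63 RPM of WT; the prde-1 level was 1.95 times that of kin-3 (1.22 to 3.33; log2 difference -0.97, SE 0.23, limma and edgeR adjusted p = 1 each). 21ur-10687 stood at 2.93 and 1.78 RPM in kin-3, 1 read in each library, and at 3.18 and 3.92 RPM in prde-1. The 2 loci of this gene differ in the same direction, but the interval of the latter's ratio was 0.416 to 13.8.

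Ratios between these loci within a library do not depend on what reads the scaling total covers; they were computed after the levels had been seen. For each read of 21ur-10492 there were 5 and 3.33 reads of 21ur-9719 in the kin-3 libraries and 0.676 and 0.826 in the prde-1 libraries. The pooled intervals, 2.29 to 6.94 and 0.643 to 0.865, are apart. For 21ur-1430 the ratio to 21ur-10492 was 0.333 and 1.17 in kin-3 and 5.16 and 6.52 in prde-1, again with pooled intervals that are apart (0.424 to 1.85 and 5.23 to 6.45). For 21ur-10824 it was 0.833 and 0.5 in kin-3 and 0.884 and 1.28 in prde-1. Its pooled intervals, 0.261 to 1.37 and 0.936 to 1.22, overlap. The difference of 21ur-10824 between the genotypes was thus not distinguishable from that of 21ur-10492, while those of 21ur-1430 and 21ur-9719 were larger or of opposite sign.

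Among rarer loci, 21ur-12557 (V 17156026 to 17156046, antisense to the 3′ UTR and coding exon of F40D4.13) had 2 and 1 reads in kin-3 and 3 and 3 in prde-1, a ratio of 6.06 (0.981 to 28.4). Leaving out either kin-3 library gave limma adjusted p-values of 0.0200 and 7.0e-04, where the remaining kin-3 library adds no spread of its own. 21ur-10895 (V 12386732 to 12386752, in no other gene) had 2 and 2 reads against 7 and 4 (ratio 4.41, 1.02 to 14.9). Their WT levels were 7.93 ± 0.373 and 8.70 ± 4.56 RPM (SD, n = 2). Both loci were named for having reads in both kin-3 libraries, which rare loci reach only when high there. This choice raises their 2 ratios, so neither interval measures a difference. 21ur-15587 (I 13781329 to 13781349, plus strand, antisense to a pseudogene exon within an intron of ccct-1) had 0 and 2 reads in kin-3 and 36 and 37 in prde-1 (prde-1 over kin-3 3.01, 0.804 to 25.3). Its neighbour 21ur-15569, 2 nt away on the same strand, had no kin-3 read and 6 and 12 in prde-1. 21ur-13684 (V 16319095 to 16319115, antisense to an exon of linc-59) had 1 kin-3 read and 42 in prde-1, a ratio of kin-3 to prde-1 of 0.289 (0.00714 to 1.70), and was at 0 in both WT libraries. For 21ur-12864 (II 1255983 to 1256003, sense to the 5′ UTR of clec-119) the reads were 0 and 2 in kin-3 and 15 and 22 in prde-1 (0.655, 0.0765 to 2.54).

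Single loci of the large cluster held very few reads. The most were at 2 overlapping loci on the minus strand, cel-piR-15414 (IV 16706013 to 16706033, without a match in the annotation) and 21ur-6729 (IV 16706014 to 16706034). cel-piR-15414 had 3 and 0 reads in kin-3 and 2 and 4 in prde-1, and 21ur-6729 had 1 and 1 in kin-3 and 7 and 5 in prde-1. 21ur-6729 was the only large-cluster locus with a read in both kin-3 libraries, against 8 with a read in both prde-1 libraries. 21ur-5666 (IV 17143259 to 17143279) had 4 and 4 reads in prde-1 and was listed at 0 in kin-3 and in WT. 21ur-2486 had 4 reads in prde-1 replicate 1 alone, and 21ur-2716 had 3 in prde-1 replicate 2 alone. In kin-3, 21ur-5383 had 2 reads in replicate 2, and 21ur-10059 had 1 there beside 2 in prde-1 replicate 1. Residual large-cluster reads were thus spread over 36 loci for 41 kin-3 reads and over 174 loci for 230 prde-1 reads.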

How the data were processed

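Small RNAs of whole worms were sequenced. The submitters' processing notes name the tools Bowtie 1.2.1.1 and cutadapt 1.18. Not given in the sources used here are settings, genome build and how multiply matching reads were assigned. The authors deposited RPM per piRNA and library, scaled to a total of 1e6. All positive values were whole multiples (tolerance 0.01) of the library's smallest value, from which whole reads and the scaling total were recovered. Each kin-3 library has only 36 positive values to base this on, so its read numbers, intervals and floor are less secure than those of prde-1. The reads counted in that total are not named. No value column was left unused. Positions and names came from the Ensembl release 115 annotation of WBcel235, which matched 9620 of 9742 listed piRNAs and 262 of the 265 members by coordinates and strand. Each member's host is the overlapping gene, coding exons taken first.

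The main test was limma 3.58.1 (R 4.3.3, trended prior) on log2(RPM + 1), 8 libraries, genotype as the only factor, mean of at least 1 RPM, Benjamini-Hochberg threshold 0.05, two-sided. On this scale the fold changes of low piRNAs are understated. edgeR 4.0.16 on recovered reads, with scaling totals as library sizes, was an alternative because RPM is not a count. Others were pseudocounts 0.1 and 5, other filters, TMM, the replicate block, a fit of these genotypes only, and each library left out. Scripts were run on simulated data with higher levels and larger folds than most measured here, which does not test power at this depth. Ratios come from pooled reads with exact conditional binomial 95% intervals, levels with Poisson and shares with Clopper-Pearson intervals (scipy 1.17.1). These cover counting error only. Ratios of single kin-3 libraries were added after seeing the data. Thinned numbers are hypergeometric expectations. The floor is 3 reads, 3.32 RPM in pooled kin-3 and 0.274 RPM in pooled prde-1.

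Whether replicates are separate cultures is not in the labels; p-values therefore reflect the spread among these libraries alone, possibly a technical one. Members, lists and the rule for naming loci were chosen with earlier results of these data known. Named are loci called by the main test, the 10 highest in each genotype with both libraries above 0, loci with a read in all 4 libraries, the 5 large-cluster loci with most reads per genotype, 21ur-1430, 21ur-9719 and members among the 10 highest in WT; 21ur-15566, 21ur-15569 and 21ur-11898 were added after their values were seen. Cell type markers do not apply to a table of piRNAs.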

Additional observations from a re-analysis of the deposited data

How the results depend on the processing

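Calls of single piRNAs depended on the setting; the cause was not tested. Against 0 higher and 0 lower, edgeR gave 1 and 2, also with only these genotypes (17 piRNAs) or with the replicate block, both added after seeing the data. A mean of at least 10 RPM gave 1 and 2 of 31. A minimum mean of 1 RPM in kin-3 and prde-1 alone gave 3 and 3 of 15, and with only these genotypes 2 and 4 of 15. This minimum uses the values compared, and rare loci pass it more readily through kin-3. Only kin-3 and prde-1 fitted gave 1 and 1 of 93, pseudocount 0.1 gave 1 lower, and TMM gave 8 lower. TMM divided prde-1 levels by 0.115 and 0.121 and kin-3 levels by 2.21 and 2.10, and turned 21ur-9719 to -2.71, 21ur-9823 to -2.45, 21ur-10895 to -1.56 and 21ur-12557 to -1.12. Leaving out 1 library gave 0 to 8 higher and 0 to 2 lower; kin-3 replicate 1 gave 5 higher and replicate 2 gave 8 higher and 1 lower. Leaving out either WT library gave 2 lower. The limma fit with the replicate block gave 0 and 0; same-numbered kin-3 and prde-1 libraries shared only a number (correlation of deviations 0.0238 over 695 piRNAs).

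Of the summed ratios, the total moved from 0.559 to 1.204 without 21ur-1430 and 0.391 without 21ur-9719 (0.528 to 0.610 with a library left out). The total without 21ur-1430, 1.204, turned to 0.899 without 21ur-9719 (1.09 to 1.39 with a library left out). As a share of piRNA reads it was 2.17, the large cluster 4.03 instead of 2.16 (1.61 to 3.07 with a library left out), and other chromosomes 1.82 instead of 1.02. The last turned to 0.606 without 21ur-9719 and to 0.988 without kin-3 replicate 1 (0.988 to 1.08). The share from the large cluster was 16.2 percentage points higher in kin-3, 27.7 without 21ur-9719 (10.9 to 21.5 with a library left out). For other chromosomes it was 29.9 points, 16.6 without 21ur-9719 and -13.6 without 21ur-1430 (28.1 to 31.8). The ratio of detected piRNAs was 1.58 after thinning (1.31 to 1.84), 0.280 as raw numbers, 2.24 thinned to 82 piRNA reads, and 1.21 for at least 2 reads. Depth in kin-3, where 1 read is worth up to 2.93 RPM, limits each statement on single loci.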
